A study of Mus musculus with 4 samples.

Results

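Presynaptic vesicle release genes were examined as a set of 35 genes, matched by symbol, among the 55403 features counted in nuclei of mouse hippocampus. The set was chosen from knowledge of the proteins, with earlier results of these data known. It holds 9 genes of SNARE proteins and their partners, 6 synaptotagmins, 11 genes of other vesicle proteins and 9 genes of the active zone and of vesicle priming. Each symbol matched 1 feature. UMIs (unique molecular identifiers, each standing for 1 captured RNA molecule) were summed per neuron class and library, and glial nuclei served as a measure of RNA that did not originate in the nucleus counted, for members that glia hold at a low level only.

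The 4 droplet libraries came from frozen, pooled hippocampi of 3 genotypes: wild type (WT, 1 library), PS19 (replicates 1 and 2) and TG_PS19 (1 library). PS19 mice carry a transgene for human tau (MAPT, P301S, the 1N4R isoform) driven by the prion protein promoter (Prnp) on a mixed B6;C3 background. TG_PS19 mice carry this transgene together with a SORLA (SORL1) transgene placed in Rosa26 and driven by a CMV/β-actin promoter, which is active in many cell types. The age of the animals, the number in each pool and whether the PS19 replicates were separate pools are not given in the labels. The spread comes from the PS19 pair only and may be technical. The test used (edgeR) draws the spread of each gene toward a value estimated over all genes. Its p-values largely reflect that shared spread, not the spread of the gene itself between the PS19 libraries. WT and TG_PS19 had 1 library each and were assumed to vary like the PS19 pair.

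Transmitter release begins when vesicles filled with transmitter dock at the active zone, a protein scaffold built by RIM, Munc13, ELKS, liprin, Bassoon and Piccolo proteins. Munc13 and its partners prime the vesicle by helping SNARE proteins of vesicle (synaptobrevin, or VAMP) and plasma membrane (syntaxin and SNAP-25) to assemble, complexins clamp the assembly, and synaptotagmins trigger fusion when calcium enters. In the hippocampus the mossy fibres of dentate granule neurons form large, strongly facilitating synapses on CA3 neurons, and these synapses differ from those of pyramidal and inhibitory neurons in their release machinery.

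The libraries held 4643 to 12762 nuclei and 20064025 to 48670533 UMIs, with a median of 2643 to 3709 UMIs per nucleus. Classes were built by clustering without the 35 genes and named after the cell type that the fixed marker genes resembled. Nuclei numbered 1630, 482, 546 and 994 (WT, PS19 replicates 1 and 2, TG_PS19) in dentate granule neurons, 347, 112, 116 and 252 in pyramidal neurons, 203, 108, 124 and 309 in other excitatory neurons, 179, 59, 85 and 164 in inhibitory neurons and 169, 68, 64 and 117 in Cajal-Retzius neurons. These classes are dentate granule-like, inhibitory-like and so on, and the suffix is left out from here. Raised markers numbered 6 of 8 in dentate granule neurons, 11 of 12 in inhibitory neurons, 6 of 6 in Cajal-Retzius neurons, 7 of 7 in oligodendrocytes and 8 of 8 in microglia. The 3 astrocyte clusters had 6, 7 and 4 of 7. Other excitatory neurons joined 2 clusters, with 3 of 10 subicular and other excitatory markers in the larger (496 nuclei) and 8 of 10 in the smaller (248 nuclei), and with 3 of 8 CA1 markers in each. The pyramidal class had 6 of 8 CA1 and 4 of 8 CA3 markers raised and is called CA1/CA3 pyramidal. Human MAPT had 0 UMIs in WT dentate granule neurons and 112, 166 and 151 UMIs in the other libraries, and human SORL1 had 263 UMIs in TG_PS19 and 0 in the rest, as the labels say. In TG_PS19, 703 of 994 dentate granule nuclei had Xist UMIs and no Y-linked UMI and 214 the reverse, whereas the other libraries had at most 1 such Xist-bearing nucleus in this class. TG_PS19 was thus set apart from the other libraries in the sex of its nuclei as well as in genotype.

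Most of the 35 genes were detected in each of the neuron classes, and the classes differed in the levels of paralogues. Levels are given in CPM, the UMIs of a gene for each 1000000 UMIs summed in that class, and as the lowest to the highest of the 4 libraries unless each is listed. For 17 of 35 genes (48.6%) the lowest library of 1 class lay above the highest library of each other neuron class, beside 21.5% of the 12969 genes with a mean of at least 5 CPM. Of the 17, 7 were highest in dentate granule neurons (20% of the 35, beside 4.53% of all genes), 5 in inhibitory neurons (14.3% and 2.76%), 3 in other excitatory neurons (8.57% and 2.13%) and 1 each in CA1/CA3 pyramidal (2.86% and 1.99%) and Cajal-Retzius neurons (2.86% and 10%). Syt6, with a mean of 6.84 CPM, passed the filter of 5 CPM only through inhibitory neurons, the class in which it is counted. Its place among the 17 was thus set by the filter. Classes come from clusters of these nuclei, so these levels are a description with no test.

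**Figure D1:**
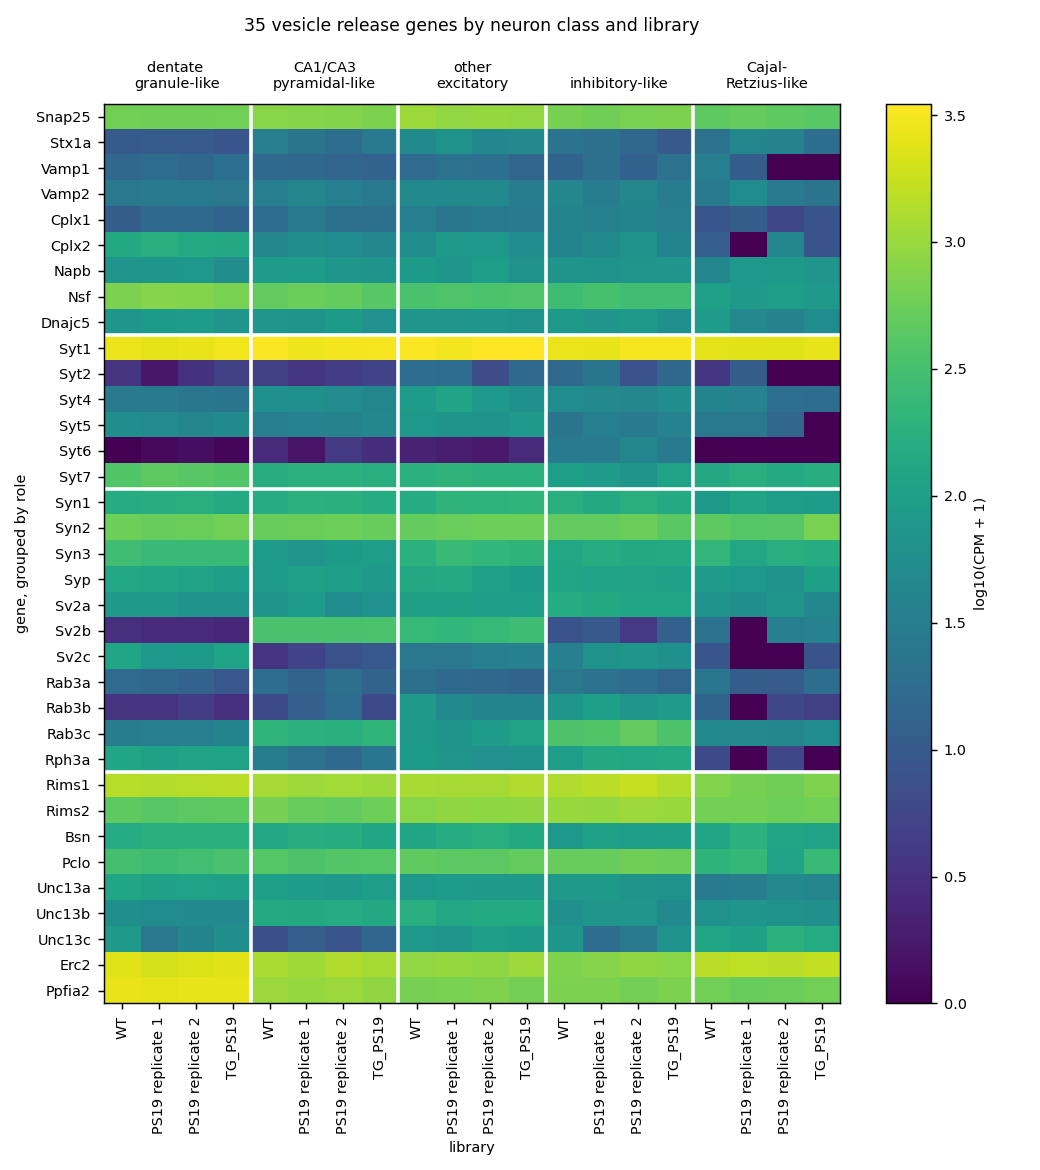
Level of the 35 vesicle release genes (rows, grouped by role as SNARE proteins and partners, synaptotagmins, vesicle proteins, and active zone and priming) in 5 neuron classes and 4 libraries (columns), as log10(CPM + 1). Sv2b, Sv2c, Rab3b, Rab3c and Syt6 show plain differences between classes, such as Sv2b at 1.45 to 2.05 CPM in dentate granule and 329.9 to 342 CPM in CA1/CA3 pyramidal neurons.

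Among SNARE proteins and partners, Snap25, the plasma membrane SNARE SNAP-25, was highest in other excitatory neurons at 927 to 1048 CPM, beside 699 to 821 CPM in CA1/CA3 pyramidal, 594 to 613 CPM in dentate granule and 427 to 508 CPM in Cajal-Retzius neurons. Stx1a, encoding the plasma membrane SNARE syntaxin-1A, was also apart in other excitatory neurons, at 43.5 to 64.6 CPM, and had 7.87 to 9.67 CPM in dentate granule neurons. Nsf, the ATPase that takes used SNARE complexes apart, was highest in dentate granule neurons at 678 to 804 CPM. It stood at 418 to 536 CPM in CA1/CA3 pyramidal and 80.4 to 104 CPM in Cajal-Retzius neurons. Cplx2 (complexin-2) had 138 to 164 CPM in dentate granule neurons and 42.3 to 55.9 CPM in CA1/CA3 pyramidal neurons, where the related Cplx1 had 17.2 to 27.4 CPM. The remaining members of this group overlapped between classes. Napb, the SNAP adaptor of NSF, spanned 53.7 to 76.5 CPM in dentate granule neurons, Dnajc5, the vesicle chaperone CSPα, spanned 69.1 to 85.8 CPM, and the synaptobrevin genes Vamp1 and Vamp2 spanned 14.7 to 18.7 CPM and 24.6 to 29.0 CPM.

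Of the 6 synaptotagmins, 3 (Syt5, Syt6 and Syt7) were highest in 1 class with no overlap. Syt1, the fast calcium sensor of release, overlapped between classes, with 2519 to 2897 CPM in dentate granule and 3018 to 3499 CPM in other excitatory neurons. Syt7, a high-affinity sensor tied to facilitation and asynchronous release, was highest in dentate granule neurons at 378 to 456 CPM, against 162 to 180.2 CPM in CA1/CA3 pyramidal and 68.1 to 110.5 CPM in inhibitory neurons. Syt6 was nearly limited to inhibitory neurons, at 27.4 to 41.3 CPM beside at most 2.99 CPM in the other neuron classes. Syt5 was highest in other excitatory neurons at 64.9 to 76.1 CPM. Syt4 and Syt2 had ranges that overlapped between classes, 59.5 to 117 CPM and 5.90 to 17.3 CPM in other excitatory neurons.

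The 3 genes of the SV2 family, glycoproteins of the vesicle membrane, were divided among the classes. Sv2b stood at 329.9 to 342 CPM in CA1/CA3 pyramidal and 223 to 280.4 CPM in other excitatory neurons, and at 1.45 to 2.05 CPM in dentate granule neurons. Sv2c was divided the opposite way between dentate granule (77.3 to 124 CPM) and CA1/CA3 pyramidal neurons (2.54 to 8.36 CPM). Other excitatory neurons held Sv2c as well, with 42 UMIs in WT, 26 and 44 in the PS19 replicates and 99 in TG_PS19. Sv2a was highest in inhibitory neurons at 125 to 155 CPM. The Rab3 GTPases, which tether vesicles to RIM, were divided as well: Rab3c reached 358 to 499 CPM in inhibitory, 176 to 205 CPM in CA1/CA3 pyramidal and 30.2 to 38.6 CPM in dentate granule neurons. Rab3b was at 73.6 to 98.6 CPM in inhibitory and 2.06 to 3.35 CPM in dentate granule neurons, but its inhibitory range met that of other excitatory neurons (38.3 to 80.8 CPM). Rab3a overlapped between classes (8.24 to 16.3 CPM in dentate granule neurons). Rph3a, encoding the Rab3 effector rabphilin, stood at 107 to 125 CPM in dentate granule and 94.4 to 147 CPM in inhibitory neurons and at 15.4 to 30.3 CPM in CA1/CA3 pyramidal neurons. The synapsins, which hold the reserve pool of vesicles, and synaptophysin overlapped between classes, with 148 to 169.5 CPM for Syn1, 526 to 611 CPM for Syn2, 242 to 289.7 CPM for Syn3 and 96.2 to 129 CPM for Syp in dentate granule neurons.

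Active zone genes gave the dentate granule neurons 3 of their 7 highest members. Erc2, encoding the ELKS-family scaffold CAST, was at 2079 to 2403 CPM there and at 728 to 892 CPM in inhibitory neurons. Ppfia2 (liprin-α2) was at 2491 to 2667 CPM, against at most 1029 CPM elsewhere among neurons. Of the Munc13 priming factors, Unc13a was highest in dentate granule neurons at 105 to 120.5 CPM, close above CA1/CA3 pyramidal neurons at 78.2 to 100.2 CPM. Unc13b had 136 to 148 CPM in CA1/CA3 pyramidal and 47.0 to 57.3 CPM in dentate granule neurons. Unc13c, which encodes Munc13-3, was highest in Cajal-Retzius neurons at 103 to 189.7 CPM and lowest in CA1/CA3 pyramidal neurons at 6.45 to 13.4 CPM. Rims2 and Pclo (Piccolo) were highest in inhibitory neurons, at 974 to 1052 CPM and 521 to 587 CPM, while Rims1 (1386 to 1522 CPM in dentate granule neurons) and Bsn, the gene of Bassoon (149.9 to 177 CPM), overlapped between classes.

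**Figure D2:**
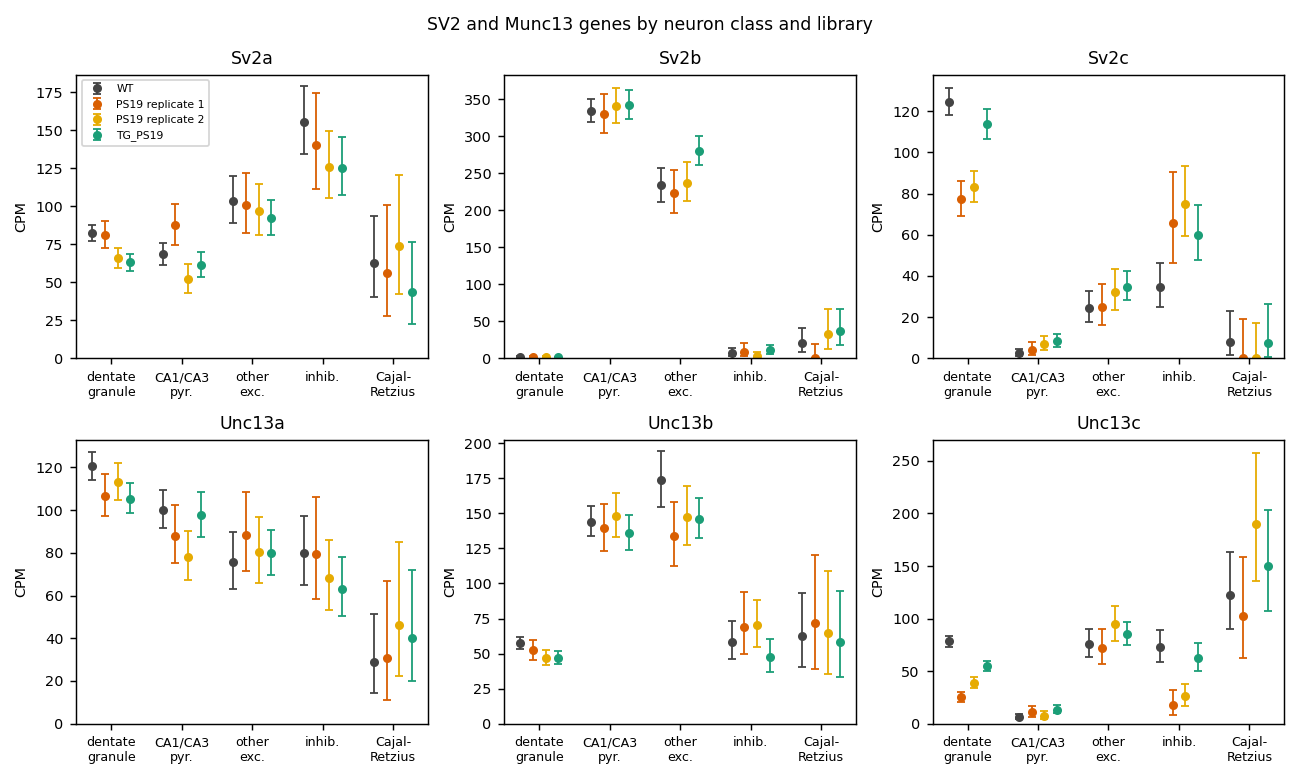
CPM (vertical axes, each starting at 0) of the SV2 and Munc13 genes in 5 neuron classes, with 1 point per library and bars for the exact 95% Poisson interval of the count. Sv2b is higher in CA1/CA3 pyramidal than in dentate granule neurons and Sv2c the reverse, while other excitatory neurons hold both. The libraries of Unc13c span 25.1 to 78.3 CPM in dentate granule neurons.

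In PS19 against WT, Unc13c and Sv2c were lower in dentate granule neurons and Unc13c was lower in inhibitory neurons, and the remaining members were called in no neuron class. In dentate granule neurons, 2 of 34 tested members were called (edgeR quasi-likelihood test, Benjamini-Hochberg adjusted p under 0.05), both lower, where 3.06% of all 17402 genes were called, 1.42% higher and 1.64% lower. Syt6 had too few counts there to be tested. The median log2 fold change of the 34 members was −0.06, beside 0.00 for all genes, and the summed level of the 35 genes was 14026 CPM in WT, 13244 and 13686 CPM in the PS19 replicates and 14107 CPM in TG_PS19.

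Unc13c (chromosome 9, 73479422 to 73968966 on the minus strand, GRCm38) stood at 78.3 CPM in WT, 25.1 and 39.0 CPM in the PS19 replicates and 54.6 CPM in TG_PS19, from 878, 109, 233 and 451 UMIs. WT was the highest library and both PS19 libraries were the lowest, with TG_PS19 between, and the PS19 mean was 32.1 ± 9.85 CPM (SD, n = 2). The fall in PS19 was called (log2 fold change −1.23, SE 0.128, edgeR adjusted p 1.54e-18). DESeq2 on the same sums, which takes its spread from the same PS19 pair, gave a change of −1.26 (adjusted p 0.709). It called no member in any neuron class in this comparison. Its unadjusted p was under 0.05 for 2 members in dentate granule, 1 in CA1/CA3 pyramidal and 1 in inhibitory neurons. The share of all genes called by DESeq2 is not given here or below, so its counts do not set members apart from other genes. Without PS19 replicate 1 the change was −0.97 and without PS19 replicate 2 it was −1.64, as values with no test. In the 5 nuclei with the most, 4.90%, 19.3%, 20.6% and 8.65% of these UMIs were found. The astrocyte class held Unc13c at 133 to 188 CPM, and the 7 astrocyte markers summed to 948, 929, 963 and 909.7 CPM in dentate granule neurons (0 markers at 0 UMIs). With nuclei holding UMIs of Aqp4, Gja1 or Gfap left out, the change was −1.24 (adjusted p 2.98e-18). In microglia, a measure of free RNA, Unc13c had 0.979 CPM in WT, 4.53 and 3.61 CPM in the PS19 replicates and 13.3 CPM in TG_PS19.

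Sv2c (chromosome 13, 95954594 to 96132577, minus strand) had 124 CPM in WT, 77.3 and 83.1 CPM in the PS19 replicates and 114 CPM in TG_PS19. The PS19 libraries lay close together, at 80.2 ± 4.05 CPM (SD, n = 2), and both were below WT and TG_PS19. The change against WT was called (log2 fold change −0.61, SE 0.109, edgeR adjusted p 7.1e-06), and DESeq2 gave −0.61 (adjusted p 0.163). Sv2c in microglia had 2.94 CPM in WT, 0 and 1.20 CPM in the PS19 replicates and 4.00 CPM in TG_PS19. Other members of dentate granule neurons differed less: Syt1 had 2748 CPM in WT, 2519 and 2649 CPM in the PS19 replicates and 2897 CPM in TG_PS19, and Snap25 had 613 CPM in WT, 604 and 594 CPM in the PS19 replicates and 609 CPM in TG_PS19.

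The start regions of these genes are shown because they were the members called in dentate granule neurons in PS19 against WT. Each sequence runs from 250 bases before to 50 after the start site in RefSeq (GRCm38.p6, minus strand in both), and capitals mark GC boxes, GGGCGG or its complement. The gene spans given above follow GENCODE. The Unc13c window lies wholly upstream of that span, which starts at 73968966 on this strand, so the 2 start sites differ. The Sv2c window holds the start of its span, 96132577.
Unc13c, chr9:73968988-73969287: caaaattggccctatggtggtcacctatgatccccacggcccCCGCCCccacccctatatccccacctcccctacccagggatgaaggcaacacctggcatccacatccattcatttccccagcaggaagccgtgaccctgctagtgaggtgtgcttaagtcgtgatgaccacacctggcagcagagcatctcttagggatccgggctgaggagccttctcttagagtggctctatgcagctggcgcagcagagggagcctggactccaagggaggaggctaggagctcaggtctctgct
Sv2c, chr13:96132528-96132827: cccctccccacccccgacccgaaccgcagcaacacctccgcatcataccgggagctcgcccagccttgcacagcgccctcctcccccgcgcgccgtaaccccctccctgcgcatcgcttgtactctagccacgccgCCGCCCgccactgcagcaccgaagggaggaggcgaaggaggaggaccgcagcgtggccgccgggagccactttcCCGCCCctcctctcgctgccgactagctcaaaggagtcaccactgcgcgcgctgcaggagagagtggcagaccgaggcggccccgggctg
A GC box was found on either strand in 35.7% of 32851 windows of this length and in 22 of the 27 members with an entry (81.5%), so its presence in both genes was usual for the set. Unc13c had 6 CG pairs in its window and Sv2c 32, beside a median of 7 over all windows. A cyclic AMP response element (TGACGTCA) was found in 1 member, Syn1, and in 1.79% of all windows. For both motifs a member was counted when any of its windows held the motif, whereas the share over all windows counts each window. The shares of members and of windows are therefore unlike measures.

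In inhibitory neurons, 1 of 35 members was called in PS19 against WT, beside 0.314% of all genes. Unc13c had 72.8 CPM in WT, 17.3 and 25.9 CPM in the PS19 replicates and 62.3 CPM in TG_PS19, and the PS19 libraries were the lowest (log2 fold change −1.67, SE 0.322, edgeR adjusted p 0.0118). Few nuclei carried this result: the 91, 10, 27 and 84 UMIs came from 24, 3, 7 and 18 nuclei, and 1 nucleus held 25 of the WT and 28 of the TG_PS19 UMIs. The call was lost with DESeq2 (−1.71, adjusted p 1), with adjusted residual degrees of freedom in edgeR (−1.68, adjusted p 0.216) and with sums thinned to equal UMIs per nucleus (−1.87, adjusted p 0.642). The 7 astrocyte markers moved with Unc13c in this class, summing to 433, 247, 228 and 439.7 CPM (1 marker at 0 in PS19 replicate 1). With nuclei holding UMIs of Aqp4, Gja1 or Gfap left out the change was −1.84 (adjusted p 4.8e-05). The 12 inhibitory markers summed to 15835, 11731, 15365 and 11649 CPM, and their part in the result was not tested. Sv2c in inhibitory neurons had 34.4 CPM in WT, 65.8 and 74.9 CPM in the PS19 replicates and 60.1 CPM in TG_PS19 and was not called (log2 fold change 1.05, SE 0.304, edgeR adjusted p 0.244).

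**Figure D3:**
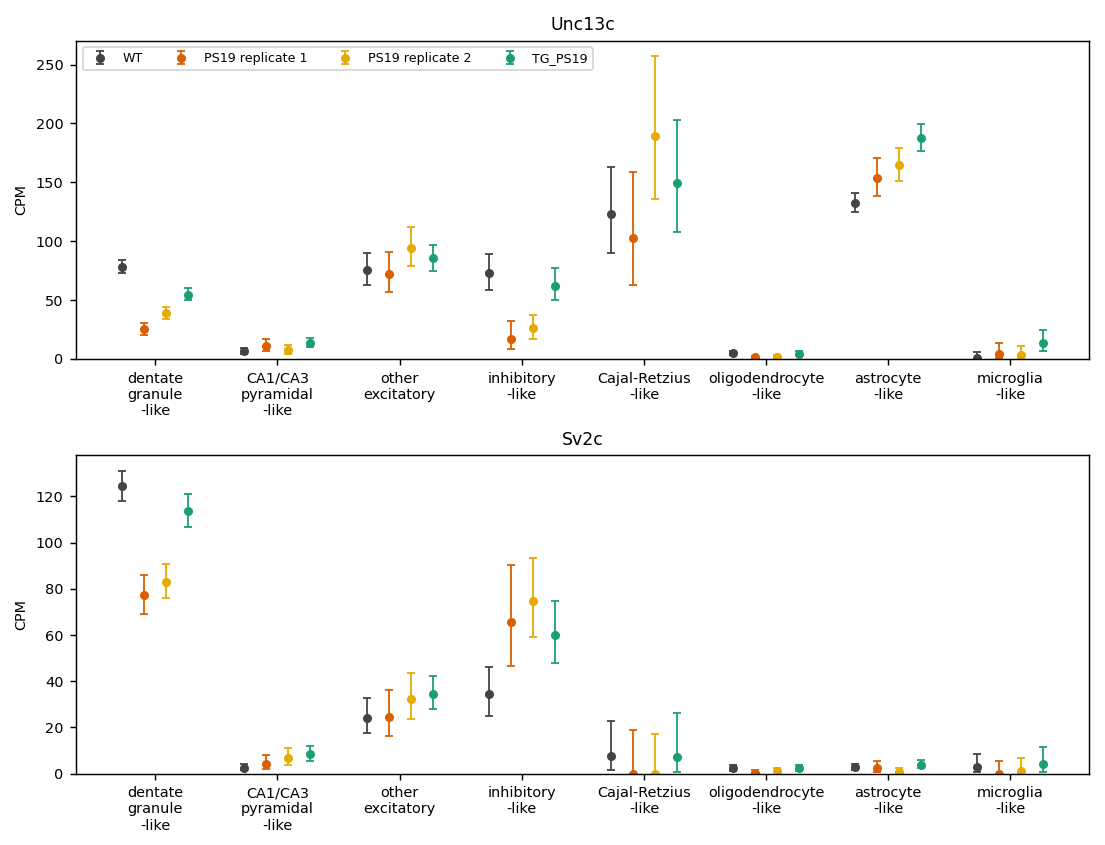
CPM of Unc13c (top) and Sv2c (bottom) in 5 neuron and 3 glial classes, 1 point per library with the exact 95% Poisson interval of the count. In dentate granule neurons both PS19 libraries lie below WT and TG_PS19 for both genes, and Unc13c is also present in astrocytes, where TG_PS19 is the highest library.

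No member was called in CA1/CA3 pyramidal, other excitatory or Cajal-Retzius neurons in PS19 against WT, where edgeR called 0.426%, 0% and 0.393% of all genes. Unadjusted p-values were under 0.05 for 5 of 34, 2 of 34 and 1 of 24 members tested, with no call by DESeq2. In CA1/CA3 pyramidal neurons the members with the smallest p were Rph3a with 30.3 CPM in WT, 19.7 and 15.4 CPM in the PS19 replicates and 23.4 CPM in TG_PS19 (log2 fold change −0.86, SE 0.232, edgeR adjusted p 0.0905), Rab3b with 5.27 CPM in WT, 10.9 and 16.7 CPM in the PS19 replicates and 5.01 CPM in TG_PS19 (log2 fold change 1.34, SE 0.388, edgeR adjusted p 0.138) and Stx1a (log2 fold change −0.74, SE 0.222, edgeR adjusted p 0.161). Both PS19 libraries lay beyond WT and TG_PS19 for each of the 3 genes, below them for Rph3a and Stx1a and above them for Rab3b. In other excitatory neurons Rab3b had 80.8 CPM in WT, 48.5 and 38.3 CPM in the PS19 replicates and 38.9 CPM in TG_PS19 (log2 fold change −0.92, SE 0.207, edgeR adjusted p 0.861), and WT alone was high. There Cplx2 (log2 fold change 0.48, SE 0.188, edgeR adjusted p 0.861) and Syn3 (log2 fold change 0.36, SE 0.154, edgeR adjusted p 0.861) came next. In Cajal-Retzius neurons these were Dnajc5 (log2 fold change −1.08, SE 0.476, edgeR adjusted p 0.785), Syn3 (log2 fold change −0.57, SE 0.302, edgeR adjusted p 1) and Napb (log2 fold change 0.90, SE 0.483, edgeR adjusted p 1). Cajal-Retzius sums held 194961 to 382852 UMIs, and which sizes of change could be called there was not tested.

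**Figure D4:**
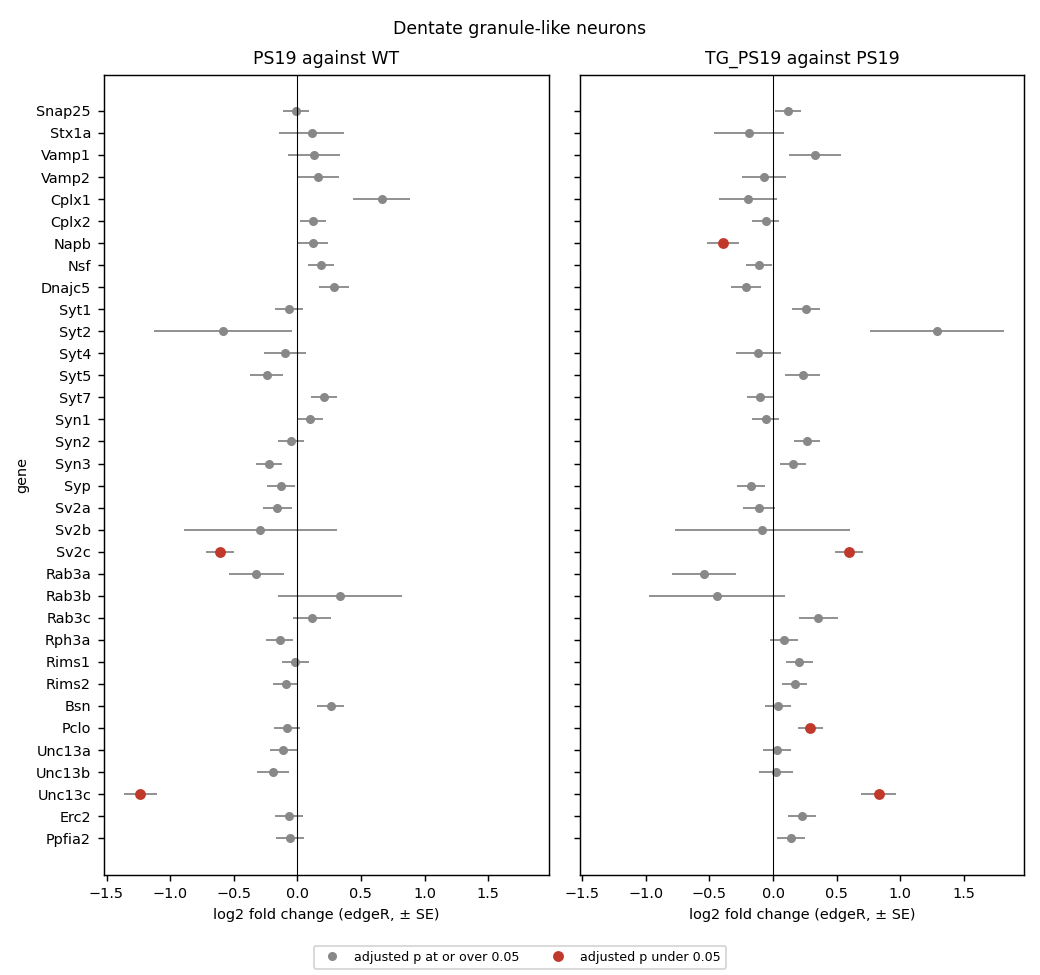
Log2 fold change (horizontal axis, points) with its SE (bars) for the 34 members tested in dentate granule neurons, PS19 against WT (left) and TG_PS19 against PS19 (right), with calls in red. Unc13c and Sv2c are the calls on the left, and Napb, Pclo, Unc13c and Sv2c those on the right. Both panels use the PS19 libraries.

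In TG_PS19 against PS19, 4 of 34 tested members were called in dentate granule neurons, beside 9.07% of all genes (6.18% higher, 2.89% lower): Unc13c, Sv2c and Pclo were higher and Napb was lower. This comparison and the last share the PS19 libraries. From the levels given above, Unc13c was higher in TG_PS19 than in both PS19 libraries (log2 fold change 0.83, SE 0.138, edgeR adjusted p 1.42e-07). Sv2c was higher too (log2 fold change 0.60, SE 0.113, edgeR adjusted p 7.32e-06). Pclo, the gene of the active zone scaffold Piccolo (chromosome 5, 14514918 to 14863459), stood at 310.3 CPM in WT, 280.4 and 297 CPM in the PS19 replicates and 331 CPM in TG_PS19, with TG_PS19 the highest (log2 fold change 0.29, SE 0.101, edgeR adjusted p 0.0424). Napb (chromosome 2, 148693985 to 148732467) stood at 70.4 CPM in WT, 74.4 and 76.5 CPM in the PS19 replicates and 53.7 CPM in TG_PS19, with TG_PS19 the lowest (log2 fold change −0.40, SE 0.126, edgeR adjusted p 0.0235). DESeq2 called no member in any neuron class in this comparison, and its unadjusted p was under 0.05 for 5 members in dentate granule and 1 in inhibitory neurons. With only those TG_PS19 nuclei that had Y-linked UMIs and no Xist UMI (214 in this class), Sv2c was no longer called (0.36, adjusted p 0.147), nor was Napb (−0.26, adjusted p 0.435), whereas Unc13c (0.60, adjusted p 0.0412) and Pclo (0.34, adjusted p 0.0423) were. The Pclo call was also lost with RLE scaling (0.29, adjusted p 0.0501) and with library totals (0.20, adjusted p 0.165).

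In inhibitory neurons, Unc13c was the 1 member of 35 called in TG_PS19 against PS19, beside 1.14% of all genes (log2 fold change 1.52, SE 0.326, edgeR adjusted p 0.0155). It rests on the nuclei described above. With Y-linked TG_PS19 nuclei alone (59 nuclei) the difference was 0.49 (adjusted p 0.832), with adjusted residual degrees of freedom 1.53 (adjusted p 0.163) and with equal UMIs per nucleus 1.71 (adjusted p 0.569). No member was called in CA1/CA3 pyramidal, other excitatory or Cajal-Retzius neurons, where 2.97%, 0.0153% and 0.638% of all genes were, and 7, 4 and 1 members had an unadjusted p under 0.05. The members with the smallest p were Rab3b (log2 fold change −1.36, SE 0.422, edgeR adjusted p 0.0751), Syn3 (log2 fold change 0.42, SE 0.169, edgeR adjusted p 0.221) and Stx1a (log2 fold change 0.54, SE 0.241, edgeR adjusted p 0.299) in CA1/CA3 pyramidal neurons. In other excitatory neurons they were Cplx2 (log2 fold change −0.52, SE 0.176, edgeR adjusted p 0.455), Vamp2 (log2 fold change −0.55, SE 0.205, edgeR adjusted p 0.501) and Rab3c (log2 fold change 0.54, SE 0.210, edgeR adjusted p 0.517). In Cajal-Retzius neurons Syn2 had 459.7 CPM in WT, 410.3 and 421 CPM in the PS19 replicates and 679.6 CPM in TG_PS19 (log2 fold change 0.76, SE 0.249, edgeR adjusted p 0.202), with TG_PS19 high, followed by Pclo (log2 fold change 0.59, SE 0.307, edgeR adjusted p 0.803) and Syp (log2 fold change 0.54, SE 0.422, edgeR adjusted p 0.971).

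In TG_PS19 against WT, a comparison of 2 lone libraries, Rab3a, the gene of the most abundant vesicle Rab3, was the 1 of 34 members called in dentate granule neurons, beside 5.76% of all genes (3.94% higher, 1.82% lower). The gene lies on chromosome 8, 70754679 to 70758677. It had 16.3 CPM in WT, 14.0 and 11.9 CPM in the PS19 replicates and 8.24 CPM in TG_PS19, from 183, 61, 71 and 68 UMIs. TG_PS19 was thus the lowest and WT the highest library (log2 fold change −0.87, SE 0.256, edgeR adjusted p 0.0178). Rab3a in oligodendrocytes was at 61.9% of the dentate granule level in WT and 100.5% in TG_PS19. These shares were 78.0% and 64.7% in microglia and 47.4% and 50.1% in astrocytes. The part of RNA from other cells in this call was not tested. DESeq2 gave a change of −0.87 with no adjusted p for this gene, and called no member in any class, with no member at an unadjusted p under 0.05 in any neuron class. No member was called in CA1/CA3 pyramidal, other excitatory, inhibitory or Cajal-Retzius neurons, where 1.37%, 0.023%, 0.99% and 0.311% of all genes were called by edgeR and 5, 4, 3 and 1 members had an unadjusted p under 0.05. In CA1/CA3 pyramidal neurons the smallest p-values were those of Sv2c (log2 fold change 1.76, SE 0.552, edgeR adjusted p 0.111), Unc13c (log2 fold change 1.10, SE 0.392, edgeR adjusted p 0.191) and Syt4 (log2 fold change −0.50, SE 0.200, edgeR adjusted p 0.286). Those of other excitatory neurons were Rab3b (log2 fold change −0.98, SE 0.219, edgeR adjusted p 0.638), Syn1 (log2 fold change 0.49, SE 0.164, edgeR adjusted p 0.662) and Syp (log2 fold change −0.66, SE 0.238, edgeR adjusted p 0.666), and Syn1 and Syp are X-linked genes. In inhibitory neurons they were Rph3a (log2 fold change 0.71, SE 0.260, edgeR adjusted p 0.331), Sv2c (log2 fold change 0.88, SE 0.333, edgeR adjusted p 0.366) and Stx1a (log2 fold change −1.20, SE 0.540, edgeR adjusted p 0.523). In Cajal-Retzius neurons they were Syn2 (log2 fold change 0.63, SE 0.280, edgeR adjusted p 0.884), Napb (log2 fold change 0.79, SE 0.547, edgeR adjusted p 0.998) and Syn3 (log2 fold change −0.48, SE 0.345, edgeR adjusted p 0.998).

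The difference of these changes between classes was tested with the library as its own control, setting each neuron class against dentate granule neurons. In PS19 against WT, the change of Unc13c was more positive than in dentate granule neurons by 1.37 (SE 0.232, edgeR adjusted p 6.15e-06) on the log2 scale in other excitatory neurons, where Unc13c had 75.6 CPM in WT, 72.2 and 94.4 CPM in the PS19 replicates and 85.4 CPM in TG_PS19. It was more positive by 1.69 (SE 0.381, edgeR adjusted p 0.00226) in CA1/CA3 pyramidal and by 1.51 (SE 0.371, edgeR adjusted p 0.0305) in Cajal-Retzius neurons. In Cajal-Retzius neurons Unc13c had 123 CPM in WT, 103 and 189.7 CPM in the PS19 replicates and 149.8 CPM in TG_PS19. These came from 47, 20, 41 and 41 UMIs in the order WT, PS19 replicates 1 and 2, and TG_PS19, which the next counts keep. Of the PS19 replicates, replicate 2 alone was above WT. The 7 astrocyte markers summed to 585, 754, 1254 and 702 CPM there (1 marker at 0 in WT). Without nuclei holding UMIs of Aqp4, Gja1 or Gfap the difference was no longer called (1.53, adjusted p 0.328). In CA1/CA3 pyramidal neurons the Unc13c counts were 33, 21, 18 and 48 UMIs in 25, 11, 9 and 25 nuclei, with 14 of the TG_PS19 UMIs in 1 nucleus. The change of Sv2c was more positive by 1.66 (SE 0.305, edgeR adjusted p 6.27e-05) in inhibitory neurons. Sv2c had 43, 38, 78 and 81 UMIs there in 24, 10, 20 and 32 nuclei. The 5 nuclei with most held 76.3% and 51.3% of those UMIs in the PS19 replicates. In TG_PS19 against WT, Unc13c differed by 1.48 (SE 0.361, edgeR adjusted p 0.0199) in CA1/CA3 pyramidal neurons, and by 0.46, adjusted p 1, at a clustering resolution of 2.0. The 2 comparisons share the WT library. In the tests that gave these calls 1 member was called each, beside 1.15%, 0.629%, 0.436% and 0.168% of all genes for CA1/CA3 pyramidal, other excitatory, inhibitory and Cajal-Retzius neurons in PS19 against WT and 0.382% for CA1/CA3 pyramidal neurons in TG_PS19 against WT. No member was called in the other 3 classes in that comparison (0.191%, 0.49% and 0.0347% of all genes; edgeR unadjusted p under 0.05 for 3, 2 and 2 members). None was called in TG_PS19 against PS19 (0.78%, 0.554%, 0.442% and 0.0637% of all genes), where this p was under 0.05 for 6, 3, 5 and 2 members. DESeq2 was not run on these differences. The difference of the Unc13c change between inhibitory and dentate granule neurons in PS19 against WT, −0.48 (SE 0.346, edgeR adjusted p 1), was not called.

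Shares of nuclei with at least 1 UMI were also described after thinning each nucleus to the same depth. The intervals given here and for Sv2c treat the nuclei of 1 library as independent. They cover counting error and do not measure the spread between animals or pools. Unc13c and Sv2c were taken because they were called on the same UMIs, so their shares describe those calls and add no separate support. At full depth Unc13c was seen in 28.6% (WT), 14.9% and 20.5% (PS19) and 24.6% (TG_PS19) of dentate granule nuclei, whose median UMIs were 6454, 8591, 10204 and 7652. Thinned to 1000 UMIs, which left out 17, 0, 0 and 1 nuclei, the shares were 7.81% (WT), 2.90% and 5.13% (PS19) and 6.45% (TG_PS19). The exact 95% binomial interval of WT (6.55% to 9.23%) lay above that of PS19 replicate 1 (1.60% to 4.83%) and overlapped that of PS19 replicate 2 (3.43% to 7.33%). Thinned to 2000 UMIs, which left out 34, 1, 0 and 6 nuclei, the shares were 12.4% (WT), 5.41% and 7.33% (PS19) and 9.21% (TG_PS19), and the WT interval (10.8% to 14.1%) lay above those of both PS19 replicates (3.56% to 7.82% and 5.29% to 9.84%). Microglia, with median UMIs of 1604, 2228, 2572 and 1648, gave 0.166% (WT), 0.760% and 0.341% (PS19) and 1.18% (TG_PS19) at full depth and 0.175% (WT), 0.382% and 0.342% (PS19) and 0.490% (TG_PS19) thinned to 1000, with 32, 1, 1 and 17 nuclei left out.

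Sv2c was seen in 46.9% (WT), 37.8% and 44.9% (PS19) and 48.6% (TG_PS19) of dentate granule nuclei at full depth, in 10.97% (WT), 7.26% and 9.16% (PS19) and 10.1% (TG_PS19) thinned to 1000 UMIs and in 22.8% (WT), 14.6% and 13% (PS19) and 19.9% (TG_PS19) thinned to 2000 UMIs. At 1000 UMIs the intervals of the 4 libraries overlapped. At 2000 UMIs the WT interval (20.8% to 24.9%) lay above those of both PS19 replicates (11.5% to 18.03% and 10.3% to 16.1%). Microglia thinned to 1000 UMIs gave 0.175% (WT), 0% and 0.342% (PS19) and 0.735% (TG_PS19), and the count of 0 in PS19 replicate 1 allows a share of up to 1.15%.

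Summed over the 35 genes, glial nuclei held a lower level than dentate granule neurons did. Some members were lower in PS19 glia than in WT glia. PS19 glial nuclei also held more UMIs. Medians in oligodendrocytes were 1935.5 (WT), 2429 and 3037.5 (PS19) and 1998.5 (TG_PS19), and in astrocytes 2887.5 (WT), 3696 and 4511 (PS19) and 3065 (TG_PS19). The part of this depth in the glial levels was not tested. The 35 genes summed to 913 to 1113 CPM in oligodendrocytes, 1314 to 1449 CPM in astrocytes and 723 to 892 CPM in microglia, beside 13244 to 14107 CPM in dentate granule neurons. In oligodendrocytes 9 of 34 members were called in PS19 against WT, all lower, beside 6.91% of all genes (4.31% lower). In astrocytes 4 of 34 were, all lower, beside 5.74% (2.53% lower), and in microglia 3 of 21, all lower, beside 6.11% (2.82% lower). Syt1 had 61.4 CPM in WT, 22.9 and 19.9 CPM in the PS19 replicates and 42.0 CPM in TG_PS19 in oligodendrocytes, with PS19 low in both libraries (log2 fold change −1.48, SE 0.155, edgeR adjusted p 6.4e-19). It had 44.0 CPM in WT, 18.1 and 14.4 CPM in the PS19 replicates and 31.7 CPM in TG_PS19 in astrocytes (log2 fold change −1.48, SE 0.205, edgeR adjusted p 1.2e-10) and 77.3 CPM in WT, 16.6 and 19.3 CPM in the PS19 replicates and 56.0 CPM in TG_PS19 in microglia (log2 fold change −2.09, SE 0.309, edgeR adjusted p 0.000225), and in each of the 3 classes WT was highest and both PS19 libraries were lowest. Snap25 was lower in the same 3 classes, with 17.6 CPM in WT, 8.35 and 4.65 CPM in the PS19 replicates and 13.1 CPM in TG_PS19 in oligodendrocytes (log2 fold change −1.43, SE 0.257, edgeR adjusted p 2.12e-06). The other calls were Syn2, Erc2, Syt7, Rims1, Syt5, Sv2b and Unc13c in oligodendrocytes, Rims1 and Syt7 in astrocytes and Erc2 in microglia. In dentate granule neurons Syt1 and Snap25 were not called (log2 fold change −0.07, SE 0.111, edgeR adjusted p 0.882 and log2 fold change −0.01, SE 0.101, edgeR adjusted p 0.982). Over the 3 glial classes edgeR made 16 calls of members, DESeq2 made 1, and edgeR on sums thinned to equal UMIs per nucleus made 6.

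Syt1 in microglia amounted to 2.62% of its level over all neurons in WT, 0.622% and 0.670% in PS19 and 1.82% in TG_PS19. Slc17a7, the vesicular glutamate transporter of excitatory neurons, had 21.5 CPM in WT, 7.55 and 6.02 CPM in the PS19 replicates and 16.0 CPM in TG_PS19 in microglia and was not called there (log2 fold change −1.66, SE 0.624, edgeR adjusted p 0.147). The 5 markers of all neurons summed to 265 CPM (WT), 116 and 71.1 CPM (PS19) and 163 CPM (TG_PS19) in oligodendrocytes. They summed to 195 CPM (WT), 99.8 and 102 CPM (PS19) and 123 CPM (TG_PS19) in astrocytes and to 367 CPM (WT), 179.7 and 84.3 CPM (PS19) and 199.9 CPM (TG_PS19) in microglia. WT was the highest library and the PS19 replicates were the lowest in each class. Of these, 1 was at 0 in PS19 replicate 1 microglia, and the part of neuronal RNA in the glial calls was not tested. In microglia 11 members stayed under 5% of their neuronal level in each library. Another 8 exceeded 20% in each, namely Stx1a, Vamp1, Vamp2, Sv2a, Syt6, Rab3a, Dnajc5 and Nsf, and in astrocytes Unc13c, Syn2, Rims2 and Pclo were among 13 members above 20%. Some members were above their neuronal level in each library. Vamp1 reached 261% to 370.4% in microglia and 213% to 243% in astrocytes. Vamp2 reached 117% to 126% in microglia, 148% to 195% in astrocytes and 145% to 196% in oligodendrocytes. Dnajc5 reached 167% to 215% in microglia, Sv2a 172% to 192% in oligodendrocytes and Unc13c 221% to 528% in astrocytes. Syt6 spanned 83.9% to 566% in microglia. For these members in these classes, glial nuclei give no measure of free RNA. In TG_PS19 against PS19, edgeR called 7 members higher and 2 lower in oligodendrocytes (8.98% of all genes were called, 5.76% higher and 3.22% lower), 5 higher and 1 lower in astrocytes (9.12%, 5.27% and 3.85%) and 1 higher in microglia (6.3%, 3.2% higher). Syt1 was higher in each of the 3 (log2 fold change 1.03, SE 0.164, edgeR adjusted p 4.36e-08 in oligodendrocytes), and Vamp2 was lower in oligodendrocytes (log2 fold change −0.59, SE 0.151, edgeR adjusted p 0.00224) and astrocytes (log2 fold change −0.54, SE 0.174, edgeR adjusted p 0.0253). Unc13c was higher in TG_PS19 astrocytes than in WT (log2 fold change 0.65, SE 0.156, edgeR adjusted p 0.0038), where 2 of 34 members, Unc13c and Pclo, were called beside 2.24% of all genes. Syn2 was the 1 of 34 called in oligodendrocytes in that comparison, lower in TG_PS19 (log2 fold change −1.07, SE 0.221, edgeR adjusted p 0.000219; 3.48% of all genes), and 0 of 21 were called in microglia (0.277%), where this p unadjusted was under 0.05 for 4 and DESeq2 made no call.

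**Figure D5:**
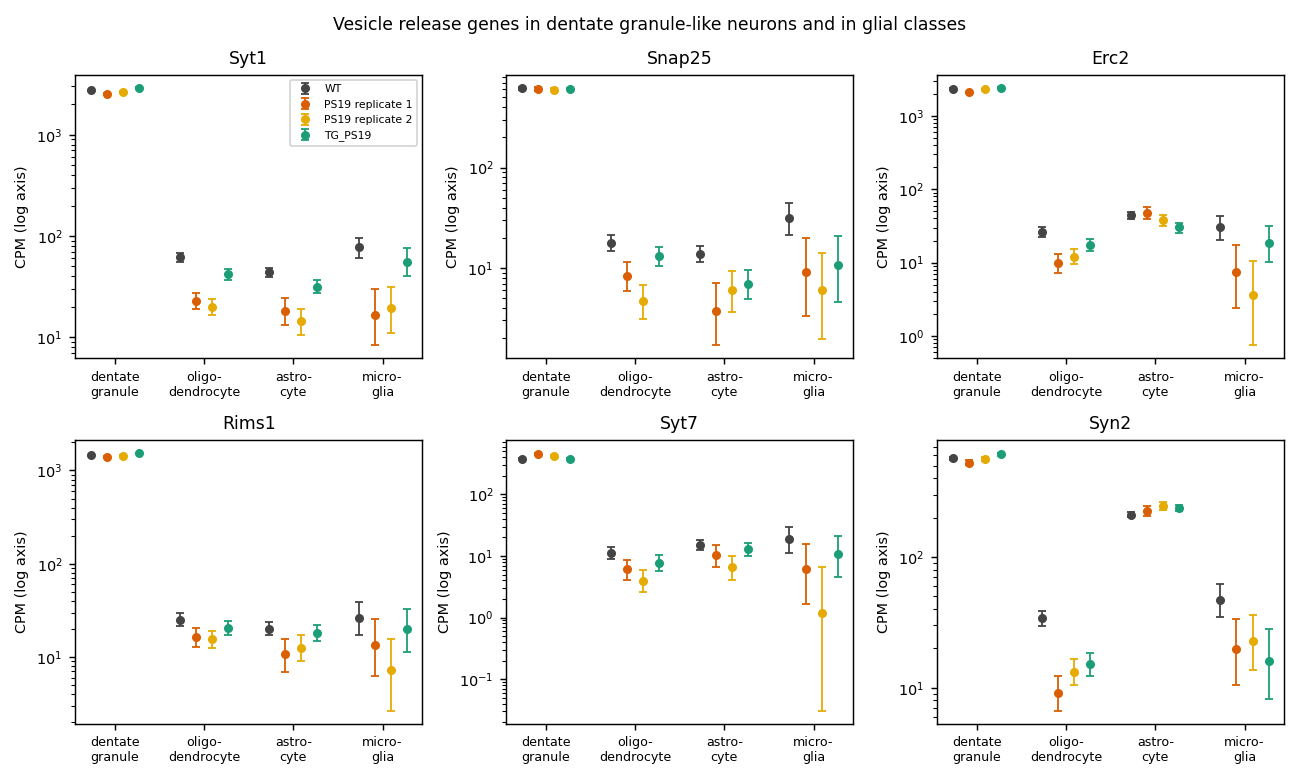
CPM on a log axis of 6 vesicle release genes in dentate granule neurons and 3 glial classes, 1 point per library with the exact 95% Poisson interval. Syt1 and Snap25 differ little between libraries in the neurons and are lower in both PS19 libraries than in WT in each glial class.

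Other genes of transmitter release and vesicle recycling formed a list of 92. In dentate granule neurons 1 rose and 2 fell among 87 tested in PS19 against WT (3.45%, near the 3.06% of all genes). Slc17a8, encoding the vesicular glutamate transporter VGLUT3, fell, with 39 UMIs in WT, 0 and 2 in the PS19 replicates and 1 in TG_PS19, too few for a fold. Nrxn3, the presynaptic adhesion protein neurexin-3, had 2215 CPM in WT, 1240.4 and 1212 CPM in the PS19 replicates and 1557 CPM in TG_PS19 (log2 fold change −0.83, SE 0.104, edgeR adjusted p 1.45e-12), with WT highest. Nrxn3 was also lower in PS19 microglia, with 125 CPM in WT, 13.6 and 14.5 CPM in the PS19 replicates and 25.3 CPM in TG_PS19 (log2 fold change −3.14, SE 0.298, edgeR adjusted p 2.1e-06). Camk2a, the kinase CaMKIIα, rose (log2 fold change 0.37, SE 0.105, edgeR adjusted p 0.023). In TG_PS19 against PS19, 7 rose and 4 fell (12.6%, beside 9.07% of all genes, of which 6.18% were higher and 2.89% lower), among them Sh3gl3, an endophilin (log2 fold change 0.50, SE 0.131, edgeR adjusted p 0.0034), Synpr, the vesicle protein synaptoporin (log2 fold change 0.44, SE 0.102, edgeR adjusted p 0.000465), Synj2, a synaptojanin phosphatase (log2 fold change −1.51, SE 0.517, edgeR adjusted p 0.0406), and Syngr3, a synaptogyrin (log2 fold change −0.73, SE 0.173, edgeR adjusted p 0.000771). In TG_PS19 against WT, 4 rose and 2 fell (6.90%, beside 5.76% of all genes), with Erc1 (log2 fold change 0.39, SE 0.116, edgeR adjusted p 0.0203) and Cacna1e (log2 fold change 0.38, SE 0.121, edgeR adjusted p 0.0348) the largest rises and Slc17a8 and Nrxn3 the falls.

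In inhibitory neurons the glutamate transporter gene Slc17a6 was the 1 of 86 called in PS19 against WT (1.16%, beside 0.314% of all genes), higher, with 1 UMI in WT, 13 and 15 in the PS19 replicates and 32 in TG_PS19. Prkcb, a protein kinase C, rose in TG_PS19 against PS19 (log2 fold change 0.84, SE 0.211, edgeR adjusted p 0.0454). In TG_PS19 against WT, Slc17a6 and Ptprd, a presynaptic receptor phosphatase (log2 fold change 1.05, SE 0.198, edgeR adjusted p 0.00496), rose and Slc32a1, the vesicular transporter of GABA, fell (log2 fold change −1.26, SE 0.298, edgeR adjusted p 0.0356). Gad2, the GABA-making enzyme that marks the class, had 329.7 CPM in WT, 329 and 358 CPM in the PS19 replicates and 235 CPM in TG_PS19 there. With nuclei holding UMIs of Slc17a6, Ebf2 or Ebf3 left out (4, 10, 9 and 26 nuclei), the Unc13c changes were −1.66 (adjusted p 0.000192) in PS19 against WT and 1.65 (adjusted p 0.000165) in TG_PS19 against PS19. Ptprd was the 1 of 62 called in Cajal-Retzius neurons, in TG_PS19 against PS19 (log2 fold change 0.85, SE 0.219, edgeR adjusted p 0.023), and none of the list was called in CA1/CA3 pyramidal or other excitatory neurons by edgeR, where 12 and 2 in PS19 against WT, 9 and 5 in TG_PS19 against PS19 and 7 and 3 in TG_PS19 against WT had an unadjusted p under 0.05. DESeq2 made no call of the list in these 2 classes. In PS19 against WT, 5 of the list were higher and 9 lower among 81 tested in oligodendrocytes (17.3%, beside 6.91% of all genes), 5 higher and 8 lower among 82 in astrocytes (15.9% and 5.74%), and 3 higher and 4 lower among 54 in microglia (13% and 6.11%).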

How the data were processed

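Single-nucleus RNA was measured in 4 libraries of pooled hippocampus. The deposited values are raw UMI counts per gene and nucleus made by the authors with Cell Ranger, whose version per the file headers was 7.1.0, on GRCm38, per the submitters' processing notes. The 35 members, the 92 other release genes and the marker lists were chosen with earlier results of these data known. Nuclei had at least 500 UMIs, 300 genes and at most 5% mitochondrial UMIs, and the highest doublet scores (Scrublet's method rewritten, 0.8% per 1000 nuclei) were left out. Clusters came from 2000 variable genes without the members, 30 principal components, 15 neighbours and the Leiden method (leidenalg 0.10.2, resolution 1.0), which gave 25. Rules for naming them from raised markers were set after the clusters had been seen. Counts summed per class and library were fitted with edgeR 4.0.16 (R 4.3.3): low-count filter, TMM scaling, quasi-likelihood test over all genes, 1 residual degree of freedom. The fit was tested on simulated data. DESeq2 1.42.0 was an alternative. Poisson and binomial intervals cover counting error only. Between library pairs 5 to 32 cell barcodes were shared. Positions follow GENCODE M21 (33 members matched by identifier). Named in full were called members, or else the 3 with the smallest p in a class and comparison. From the list of 92, the 2 highest and 2 lowest calls were named, and the few others were named after their values were seen.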

Additional observations from a re-analysis of the deposited data

Results flagged for a closer look

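A change that differed between neuron classes drew attention for 2 genes, each by edgeR's test of the difference itself. The PS19 against WT change of Unc13c differed from that in dentate granule neurons by 1.37 on the log2 scale in other excitatory, 1.69 in CA1/CA3 pyramidal and 1.51 in Cajal-Retzius neurons. With adjusted residual degrees of freedom the first was 1.36, adjusted p 0.0132, and the second 1.69, adjusted p 0.0998. The third was 1.51, adjusted p 0.834. For that difference this setting called 0 of all 17281 genes, where the main fit called 29, so the lost call does not set Unc13c apart. With sums thinned to equal UMIs per nucleus the first was 1.40 (edgeR unadjusted p 0.000294, adjusted p 0.391). Thinning left 0 of all 16328 genes called for that difference, where the main fit called 109 of 17317. The lost call of the first thus does not set Unc13c apart from other genes. With doublets kept the second was 0.93, adjusted p 0.173. The third was not called with equal UMIs per nucleus (adjusted p 0.164). It was 1.49, adjusted p 0.0778, without the low-count filter, 1.45, adjusted p 0.0537, with Y-called TG_PS19 nuclei and 1.53, adjusted p 0.328, without neurons holding astrocyte-marker UMIs.

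The TG_PS19 against WT change of Unc13c differed by 1.48 in CA1/CA3 pyramidal neurons, and by 1.02, adjusted p 0.783, with only the Y-called TG_PS19 nuclei. It was 0.46, adjusted p 1, at resolution 2.0, 1.48, adjusted p 0.34, with adjusted residual degrees of freedom, 0.94, adjusted p 0.115, with doublets kept and 1.43, adjusted p 0.0565, without the low-count filter. The PS19 against WT change of Sv2c differed by 1.66 in inhibitory neurons, and by 1.66, adjusted p 0.105, with adjusted residual degrees of freedom.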

How the results depend on the processing

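Counts of called members, summed over 5 neuron classes, were 3 (PS19 against WT), 5 (TG_PS19 against PS19) and 1 (TG_PS19 against WT). With DESeq2 all 3 were 0. In PS19 against WT the count was 5 with library totals and 6 with members among the clustering genes. In TG_PS19 against PS19 it was 3 without the low-count filter and 2 with only the TG_PS19 nuclei that had Y-linked UMIs and no Xist UMI (Y-called). In TG_PS19 against WT it was 4 with library totals, 3 with adjusted residual degrees of freedom, 5 without neurons holding astrocyte-marker UMIs (chosen after seeing the data), and 2 without the filter, with a robust prior, with members among the clustering genes, at resolution 2.0, with equal UMIs per nucleus and with Y-called nuclei. Glial counts of 16, 16 and 3, in the same order, became 1, 0 and 0 with DESeq2. With equal UMIs per nucleus the first and second were 6 and 6, and with Y-called nuclei those of TG_PS19 against PS19 and WT were 10 and 1. The last was 1 with RLE scaling. The count of 5 differences between classes was 1 with adjusted residual degrees of freedom, 13 at resolution 2.0 and 3 with equal UMIs. The share of all genes moved too. At resolution 2.0 it was 1.44% (PS19 against WT) and 1.46% (TG_PS19 against WT) in other excitatory neurons, beside 0.629% and 0.191%. In PS19 against WT, adjusted degrees of freedom gave 0.359% in CA1/CA3 pyramidal neurons, beside 1.15%. The other counts here stand without such shares and do not set members apart from all genes. The 17 members apart by class ranged from 14 to 18, and from 17 to 18 without either PS19 replicate. Among single members, 2 values changed sign with Y-called nuclei, neither called: Sv2c in inhibitory neurons, TG_PS19 against WT, −0.013, and Syp in Cajal-Retzius neurons, TG_PS19 against PS19, −0.73. Over 39 named log2 fold changes, 548 alternative values stayed the same, 22 lost a call and 22 gained one. For tested values, the same means direction and side of the threshold. Most of the 39 were not called in the main fit, and for these the same means that they stayed uncalled. With DESeq2, 30 of the 39 stayed the same and 9 lost a call, which were all of the calls among them. The 548 also hold values with no test that stayed within the PS19 spread. These were 35 without PS19 replicate 1, 35 without replicate 2 and 28 with the microglial level per nucleus subtracted from the members. Another 18 values with no test moved by more than that spread: 4, 4 and 10 in the same order. The fits without the TG_PS19 or the WT library and those without inhibitory nuclei holding Slc17a6, Ebf2 or Ebf3 UMIs were also chosen after seeing the data. In Cajal-Retzius neurons and microglia 24 and 21 of 35 members passed the low-count filter. The causes of these changes were not tested. No paired analysis was possible because only PS19 has numbered replicates.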
